A study of Homo sapiens with 6 samples.

Results

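The genes of cholesterol and fatty acid synthesis were compared between HT29 cells that are sensitive to methotrexate (MTX) and HT29 cells resistant to 10 μM MTX. The set holds 32 genes out of 19775 with a probe set naming 1 gene, and consists of 16 enzymes of the sterol branch, 6 regulators and carriers of sterols, and 10 genes of the fatty acid branch. Members were taken from knowledge of the pathway, with earlier results of these data known. Each was read from the probe set with the highest mean signal among those that name only that gene. HT29 is a human colon adenocarcinoma line, and MTX is an antifolate that inhibits dihydrofolate reductase. RNA from 3 samples of each kind was hybridized to Affymetrix HG U133 PLUS 2.0 arrays, which gave 1 MAS5 signal (a linear intensity) per probe set and array. Sensitive cells were kept with whole serum in Ham's F12 medium. Resistant cells, obtained by stepwise exposure to rising MTX, were kept in medium lacking glycine, hypoxanthine and thymidine and supplemented with dialyzed serum, so that medium and resistance cannot be told apart here. The samples are called triplicates, and the sources used here do not say that they came from separate cultures, so that p-values measure only how these samples spread around their means, which may be technical.

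Signals were put on a common scale by dividing by the array median, and this ratio is called the scaled signal (1 is the array median). Array medians were between 13.3 and 16.9, and log2 signals correlated at 0.972 to 0.979 within groups and 0.914 to 0.922 between them. Of the 10 colon epithelial markers, 8 had a mean scaled signal of at least 1, and CDX1 and CDX2 did not. The summed signal of the 10 was 2056 to 2268 in sensitive and 1597 to 1795 in resistant arrays. In all 5 of the 8 were called lower and 1 higher, against 22.5% and 12.4% of all tested genes. Of 15 markers of other cell types with a probe set, 3 reached that level (CD14, called lower, ACTA2, called higher, and PECAM1, not called). CD14 reached it only through the sensitive arrays (mean 2.41, against 0.463 in resistant arrays), and ACTA2 lost its call without resistant replicate 1 or 2. The summed signal of the list was 9.88 to 14.5 in sensitive and 10.5 to 13 in resistant arrays. The 3′ to 5′ signal ratio of ACTB was 1.12 to 1.17 in sensitive and 1.17 to 1.3 in resistant arrays, and that of GAPDH was 1.00 to 1.01 and 0.98 to 1.04. The part of marker levels and of RNA quality in the results was not tested. Resistant replicate 1 had the lowest array median, and it gave the highest of the 3 resistant values for 27 of 28 tested members (96.4%), against 8393 of 11835 tested genes (70.9%). Results that rest on that array are therefore also given without it.

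Cholesterol is built from acetyl-CoA through mevalonate, farnesyl diphosphate, squalene and lanosterol, while fatty acids are built from the same acetyl-CoA by carboxylation and chain elongation. Both branches are controlled by the SREBP transcription factors, the products of SREBF1 and SREBF2, which lie in the endoplasmic reticulum bound to the escort protein SCAP. When sterols are plentiful, the INSIG proteins hold this complex back. When they are scarce, it moves to the Golgi, where proteases release the active factor. SREBP-2 is best known for driving sterol genes and SREBP-1c for fatty acid genes. Serum lipoproteins bring cholesterol to cultured cells.

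To show the sequences upstream of the members that the results turn on, RefSeq promoters (GRCh38.p14) were searched over the 250 bases before the start for 3 short motifs on both strands. These were TCACNCCAC (a form of the sterol regulatory element), CACGTG (an E-box) and CCAAT (the site of NF-Y, a factor known to act with SREBP). Promoters were listed for 29 members, while ACAT2, SQLE and FASN had none. CCAAT was found in 12 of 14 sterol enzymes, 3 of 6 regulators and 5 of 9 fatty acid genes, and in 37% of 27305 genes. CACGTG was found in SC5D, INSIG1 and SCAP and in 7.73% of all genes. TCACNCCAC was found in SREBF2 only among the members and in 1.09% of all genes. The stretches printed here run 5′ to 3′ on the strand of the gene, from 12 bases before the first motif to 12 bases after the last, with motifs in capitals (ATTGG is CCAAT on the opposite strand). They are the upstream stretches of the 3 members with the largest rises, of the one with the largest fall, of the gene of SREBP-2 and of INSIG1. They lie at chr5:43313496-43313579 (minus strand), chr5:111512649-111512708 (minus strand), chr21:46228908-46228936 (minus strand), chrX:152830823-152830995 (plus strand), chr22:41832960-41833015 (plus strand) and chr7:155297696-155297840 (plus strand), in the order of the lines.
HMGCS1: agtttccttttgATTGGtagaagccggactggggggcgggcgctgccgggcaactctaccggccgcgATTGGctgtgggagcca
STARD4: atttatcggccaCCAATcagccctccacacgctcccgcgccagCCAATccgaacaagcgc
LSS: cgcggcgctctgATTGGttgcgtgggcgt
NSDHL: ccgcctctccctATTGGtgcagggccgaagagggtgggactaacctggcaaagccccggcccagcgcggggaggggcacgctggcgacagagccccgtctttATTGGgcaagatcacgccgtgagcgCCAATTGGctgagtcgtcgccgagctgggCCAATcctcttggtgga
SREBF2: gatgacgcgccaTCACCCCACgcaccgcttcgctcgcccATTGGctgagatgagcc
INSIG1: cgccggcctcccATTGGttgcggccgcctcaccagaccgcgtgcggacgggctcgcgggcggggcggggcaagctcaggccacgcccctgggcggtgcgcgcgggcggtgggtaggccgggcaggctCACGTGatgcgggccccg
HMGCS1 and STARD4 each hold 2 CCAAT boxes, LSS holds 1, and NSDHL holds 5, of which 2 overlap. The stretch of SREBF2 has the sterol regulatory element at -133 from the start and a CCAAT box at -106. A match of letters is a description and not a site of binding.

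Of the 32 members, 29 had a probe set naming that gene alone, and CYP51A1, FADS1 and ACSL3 were not analysed here for lack of one. FADS2, a fatty acid desaturase, had a mean scaled signal under 1 (0.232, 0.960 and 0.117 in sensitive and 0.624, 0.412 and 0.112 in resistant cells) and was not tested. Among the 28 tested members 7 were higher and 3 lower in resistant cells (limma, adjusted p under 0.05 over 11835 genes), and 18 were not called. Over all tested genes 12.4% were called higher and 22.5% lower. The groups did not overlap for 9 members that were higher in resistant cells and 4 that were lower, against 16.8% and 29.3% of all genes. The median log2 fold change of the members was 0.20 against -0.10 for all tested genes. Scaling moved this split, since after quantile normalization, where the median of all genes was 0.02, 15 members were called higher and 1 lower (21.1% and 18.8% of all genes). Without resistant replicate 1 the counts were 3 higher (HMGCS1, LSS and STARD4) and 6 lower (NSDHL, INSIG1, ACLY, PMVK, SREBF1 and FASN), against 9.71% and 30.2% of all genes, whose median was then -0.18. limma without a mean-variance trend called HMGCS1, LSS and STARD4 higher and NSDHL lower, and the methods' t-test called HMGCS1 higher and NSDHL and FASN lower. In bulk RNA of this kind, fewer cells of a type and less RNA per cell cannot be told apart.

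**Figure D1:**
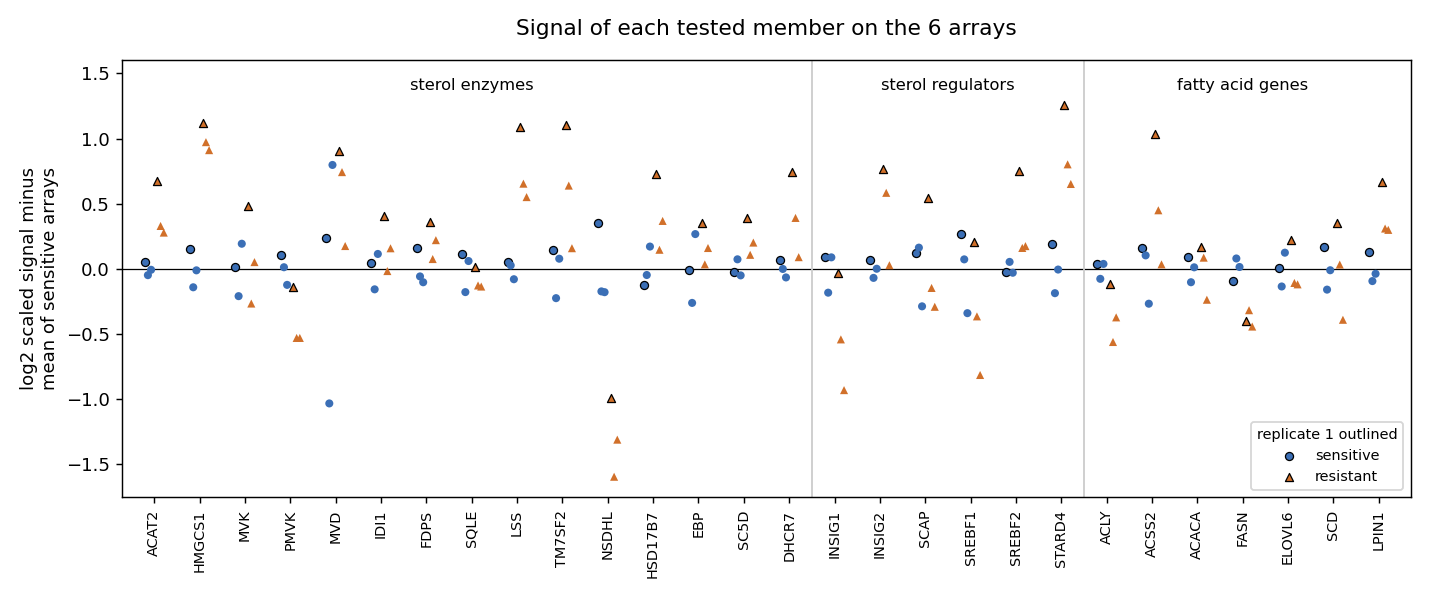
Log2 scaled signal of the 28 tested members on each array (circles, sensitive; triangles, resistant), relative to the mean of the 3 sensitive arrays, with replicate 1 outlined. HMGCS1, LSS and STARD4 lie above and NSDHL below every sensitive array, and resistant replicate 1 is the highest resistant value for 27 of the 28.

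In the sterol branch, the early enzyme HMGCS1, the cyclase LSS and the late enzymes TM7SF2 and DHCR7 rose in resistant cells together with ACAT2, while NSDHL, which lies between them in the pathway, fell. Thus 5 of 15 tested sterol enzymes were called higher and 1 lower, and 9 were not called. Of all tested genes 12.4% were called higher and 22.5% lower. The median of the 15 log2 fold changes was 0.23, against -0.10 for all tested genes. Without resistant replicate 1 the counts were 2 higher and 2 lower (9.71% and 30.2% of all genes). The median was then 0.15, against -0.18 for all genes.

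ACAT2, the cytosolic thiolase that joins 2 molecules of acetyl-CoA, had scaled signals of 33.4, 31.1 and 32 in sensitive and 51.3, 40.4 and 39.0 in resistant cells. Its groups did not overlap and the log2 fold change was 0.43 (SE 0.15, limma, adjusted p = 0.026), but the call was lost without resistant replicate 1 or any 1 of the sensitive arrays. HMGCS1, which makes HMG-CoA in the cytosol, had scaled signals of 29.9, 24.4 and 26.7 in sensitive and 58.6, 52.8 and 50.6 in resistant cells. All resistant arrays were well above all sensitive ones, with a log2 fold change of 1.00 (SE 0.15, limma, adjusted p = 1.1e-06). The second probe set of HMGCS1 gave 0.81 (SE 0.19), again with no overlap (15.4, 22.1 and 23.3 against 25.8, 40.3 and 41.3). HMG-CoA reductase, which follows in the pathway, was not analysed here for lack of a probe set naming it alone.

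The tested enzymes that turn mevalonate into squalene epoxide were not called, and FDFT1, the squalene synthase, was not analysed here. PMVK, or phosphomevalonate kinase, had a log2 fold change of -0.40 (SE 0.17, limma, adjusted p = 0.059). It was called lower under 5 of 19 alternative settings, among them without resistant replicate 1. Its groups did not overlap, at 21.5, 20.1 and 18.3 against 18.1, 13.8 and 13.8. MVD, the mevalonate diphosphate decarboxylase, varied widely, with scaled signals of 1.99, 0.827 and 2.94 against 3.17, 2.83 and 1.91 (log2 fold change 0.61, SE 0.36), and was called higher only without sensitive replicate 3. IDI1, which isomerizes isopentenyl diphosphate, and FDPS, which makes farnesyl diphosphate, had log2 fold changes of 0.18 (SE 0.13) and 0.22 (SE 0.13). Both were called higher after quantile normalization and after scaling to the median of probe sets past the filter. The probe set of IDI1 is of the kind (x_at) that can also bind related transcripts, as is that of HSD17B7.

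MVK, or mevalonate kinase, and SQLE, or squalene epoxidase, are 2 of the 4 members whose probe sets differed in direction. MVK had scaled signals of 7.89, 6.75 and 8.92 in sensitive and 10.9, 6.49 and 8.09 in resistant cells, and the groups overlapped (log2 fold change 0.09, SE 0.19, adjusted p = 0.75). Its other tested probe sets gave log2 fold changes of -0.19 and -0.26, neither of them called. SQLE had 205, 167 and 197 against 191, 173 and 172, with a log2 fold change of -0.08 (SE 0.11, adjusted p = 0.59), and its next probe sets gave -0.12 and -0.01. The dimmest of its 4 probe sets gave 3.54, 4.05 and 3.84 against 7.53, 5.56 and 5.17, a log2 fold change of 0.66 (SE 0.20), and was called higher in the fit over probe sets (adjusted p = 0.016). The choice of probe set thus sets the call for SQLE.

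LSS, which folds squalene epoxide into lanosterol, had scaled signals of 17.2, 16.9 and 15.7 in sensitive and 35.3, 26.1 and 24.3 in resistant cells. The groups were apart, and the log2 fold change was 0.76 (SE 0.17, limma, adjusted p = 0.00038). A second probe set of LSS gave 4.48, 4.33 and 2.31 against 4.04, 3.40 and 4.95, with a log2 fold change of 0.20 (SE 0.25) and no call. TM7SF2, a sterol C14 reductase, had 8.03, 6.21 and 7.66 in sensitive and 15.6, 11.3 and 8.10 in resistant cells. The lowest resistant array was almost at the highest sensitive one, and the call (log2 fold change 0.63, SE 0.20, adjusted p = 0.0099) was lost without sensitive replicate 2, resistant replicate 1 or resistant replicate 2.

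NSDHL, a dehydrogenase that takes part in removing the methyl groups at carbon 4 of the sterol ring, fell in resistant cells. Its scaled signals were 34.8, 24.2 and 24.1 in sensitive and 13.7, 9.03 and 11 in resistant cells, and the groups did not overlap. It fell by 1.30 on the log2 scale (SE 0.18, limma, adjusted p = 2.2e-07). The second probe set, with 28.3, 23.9 and 28.5 against 8.95, 6.99 and 9.21, fell by 1.69 (SE 0.17). HSD17B7, the reductase that works beside NSDHL, was not called (log2 fold change 0.42, SE 0.17, limma, adjusted p = 0.055). It was called higher under 7 of 19 alternative settings, among them quantile normalization, no further scaling and leaving out resistant replicate 2.

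The last enzymes of the pathway include EBP, SC5D and DHCR7. EBP, the sterol isomerase, had scaled signals of 27.8, 23.3 and 33.6 in sensitive and 35.6, 28.6 and 31.2 in resistant cells (log2 fold change 0.18, SE 0.16, adjusted p = 0.41). Its 3 other probe sets gave log2 fold changes of -0.13, -0.21 and -0.82, none of them called. After quantile normalization EBP and SC5D were called higher, and SC5D also under other scalings (3 of 19 alternative settings). SC5D, a sterol desaturase, had 50.2, 53.7 and 49.3 against 67.0, 55.0 and 58.7, which do not overlap, but the difference was not called (log2 fold change 0.23, SE 0.14, adjusted p = 0.20), and a dimmer probe set gave -0.48. DHCR7, which makes cholesterol from 7-dehydrocholesterol, had 35.6, 34 and 32.5 against 56.9, 44.6 and 36.2. It rose by a log2 fold change of 0.41 (SE 0.16, adjusted p = 0.040), and this call was also lost without any 1 array except resistant replicate 3.

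Among the 6 regulators STARD4 and INSIG2 were higher, INSIG1 was lower and 3 were not called, against 12.4% higher and 22.5% lower of all tested genes. The median of the 6 log2 fold changes was 0.20, against -0.10 for all tested genes. Without resistant replicate 1 it was -0.02, against -0.18. STARD4, a cytosolic carrier of sterols, had scaled signals of 16.5, 12.7 and 14.4 in sensitive and 34.6, 25.2 and 22.7 in resistant cells. Every resistant array was above every sensitive one, with a log2 fold change of 0.90 (SE 0.17, limma, adjusted p = 6.8e-05).

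Both INSIG genes encode proteins of the endoplasmic reticulum that retain SCAP, and INSIG1 is itself a well known target of SREBP. INSIG1 had scaled signals of 54.5, 45.0 and 54.3 in sensitive and 50, 35.1 and 26.8 in resistant cells. The groups overlapped at resistant replicate 1, and the log2 fold change was -0.50 (SE 0.17, adjusted p = 0.018), with -0.60 and -0.51 at the 2 other probe sets. The call for INSIG1 was lost after quantile normalization (no regulator was then called lower) and without sensitive replicate 1 or 3 or resistant replicate 2 or 3, but not without resistant replicate 1. INSIG2 had 22.1, 20.1 and 21.1 in sensitive and 35.8, 31.6 and 21.5 in resistant cells, where resistant replicate 3 lay within the range of the sensitive ones. Its log2 fold change was 0.46 (SE 0.17, adjusted p = 0.033), and the call was lost without any 1 array except resistant replicate 3.

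The SREBP genes and SCAP were not called. SREBF1, which encodes the SREBP-1 proteins, had scaled signals of 7.17, 6.27 and 4.71 against 6.86, 4.63 and 3.39 (log2 fold change -0.33, SE 0.22, adjusted p = 0.26), although without resistant replicate 1 it was called lower. SREBF2 had 5.41, 5.71 and 5.39 against 9.26, 6.15 and 6.21, which do not overlap (log2 fold change 0.36, SE 0.19, adjusted p = 0.15). Under 3 of 19 alternative settings SREBF2 was called higher. These were the deposited signals with no further scaling, quantile normalization, and scaling to the median of probe sets past the filter. SCAP had 11, 11.3 and 8.27 against 14.7, 9.12 and 8.25, with overlapping groups (log2 fold change 0.04, SE 0.19, adjusted p = 0.90).

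In the fatty acid branch 1 of 7 tested genes was lower, none was higher, and 6 were not called, while 22.5% of all tested genes were lower and 12.4% higher. limma gave 2 higher and 2 lower genes at an unadjusted p under 0.05, and the methods' t-test gave 1 and 1. The median log2 fold change was -0.00019 (-0.10 for all tested genes), and -0.11 without resistant replicate 1 (-0.18 for all tested genes). ACLY, the ATP citrate lyase that supplies cytosolic acetyl-CoA to both branches, had scaled signals of 118, 109 and 118 in sensitive and 106, 77.9 and 88.8 in resistant cells. The groups did not overlap, and ACLY fell by 0.35 on the log2 scale (SE 0.13, adjusted p = 0.029), with -0.65 and -0.35 at its other probe sets. The call for ACLY was lost after quantile normalization, where none of the 7 genes was lower and 2 (ACSS2 and LPIN1) were called higher. It was also lost without any 1 array except resistant replicate 1.

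FASN, the fatty acid synthase, had scaled signals of 14, 15.8 and 15.1 in sensitive and 11.3, 12 and 11 in resistant cells. The groups were apart and the arrays close within each, but the log2 fold change of -0.39 (SE 0.17, adjusted p = 0.067) was not called. It was called by the methods' t-test and without resistant replicate 1. ACACA, or acetyl-CoA carboxylase, ELOVL6, an elongase, and SCD, the stearoyl-CoA desaturase, had log2 fold changes of 0.0035 (SE 0.15), -0.0013 (SE 0.16) and -0.00019 (SE 0.14). The third probe set of ELOVL6, however, was called lower, at 7.61, 6.29 and 8.02 against 4.23, 4.17 and 4.78 (log2 fold change -0.73, SE 0.19, adjusted p = 0.0049). ACSS2, which makes acetyl-CoA from acetate, and LPIN1, a phosphatidate phosphatase, had log2 fold changes of 0.51 (SE 0.22, adjusted p = 0.070) and 0.42 (SE 0.20, adjusted p = 0.091). ACSS2 was called higher under 6 of 19 alternative settings, among them without resistant replicate 3, and LPIN1 under 3 of 19.

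**Figure D2:**
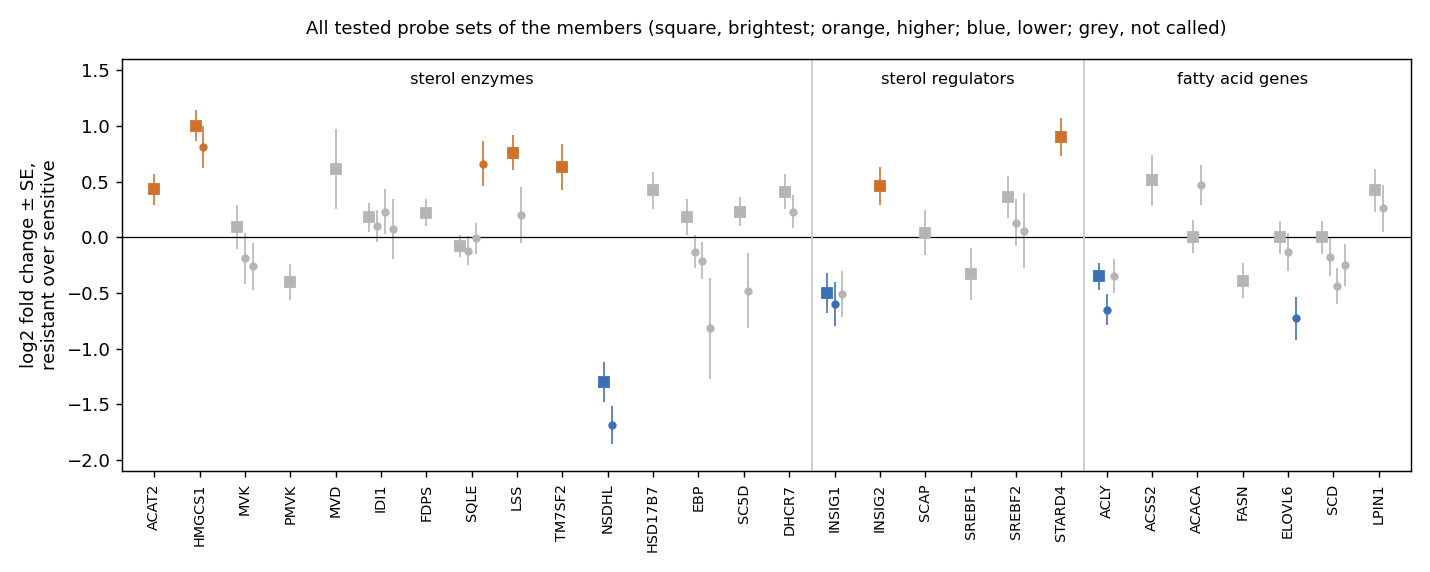
Log2 fold change with SE of every tested probe set of the members, in a fit over 26833 probe sets (squares, the brightest of each gene; orange, called higher; blue, called lower; grey, not called). Both probe sets of HMGCS1 are higher and both of NSDHL lower, and DHCR7, called in the fit over genes, is not called here.

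Agreement between probe sets was examined for the 16 members with more than 1 tested probe set. The sign differed between probe sets for 4 (MVK, SQLE, EBP and SC5D). The call was the same at every probe set for 11 and was made at some probe sets only for 5 (SQLE, LSS, INSIG1, ACLY and ELOVL6). No member was called higher at one probe set and lower at another.

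To set the branches side by side, the log2 scaled signals of the tested genes of each branch were averaged on each array, relative to the mean of the sensitive arrays. The sterol enzymes averaged 0.09, -0.16 and 0.07 on the sensitive and 0.48, 0.10 and 0.09 on the resistant arrays, while the fatty acid genes averaged 0.07, -0.05 and -0.02 and 0.27, -0.01 and -0.17. Resistant replicate 1 was the highest array for both, and the other resistant arrays lay close to the highest sensitive one for the sterol enzymes. A factor that multiplies all genes of an array alike drops out of the difference of sterol enzymes minus fatty acid genes, but array effects that differ between genes do not. The difference was 0.02, -0.11 and 0.09 on the sensitive and 0.21, 0.12 and 0.26 on the resistant arrays. These do not overlap, with a difference between the group means of 0.20 (SD 0.10 in sensitive and 0.07 in resistant arrays, n = 3 each), and it was 0.19 without resistant replicate 1. Leaving out NSDHL, the only sterol enzyme called lower, gave 0.31. That rise follows from taking out a low value, and no gene called higher was left out in the same way. With the second brightest probe set of each gene, where there was one, the difference was -0.0028, so that it rests on the probe sets chosen. No test is given, since the members were chosen with results known.

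**Figure D3:**
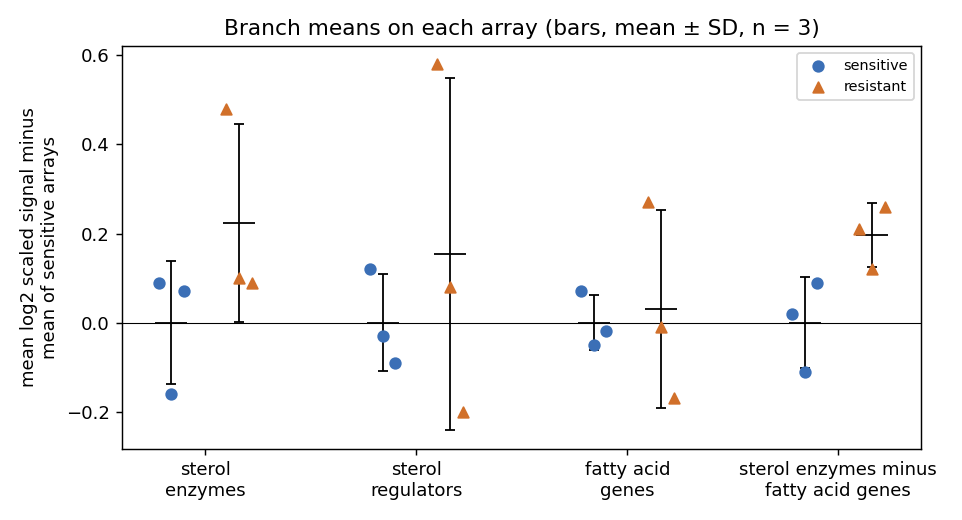
Mean log2 scaled signal of the sterol enzymes (15 genes), sterol regulators (6) and fatty acid genes (7) on each array, relative to the mean of the sensitive arrays, and the difference of sterol enzymes minus fatty acid genes (points, arrays; bars, mean ± SD, n = 3). The groups overlap for the regulators and the fatty acid genes, meet at 0.09 for the sterol enzymes, and do not overlap in the difference.

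The genes next to the called members were then examined, taking the 5 nearest tested genes on either side in RefSeq order. NSDHL lies on chromosome X, and 8 of its 10 neighbours were also lower and none higher, with a median log2 fold change of -1.38. HMGCS1 lies on chromosome 5, and 7 of its 10 neighbours were also higher and none lower, with a median of 0.83. Those on one side include ANXA2R, ANXA2R-OT1 (both higher) and ANXA2R-AS1 (not called), which are named after the same gene and may not be independent. STARD4, elsewhere on chromosome 5, had 4 higher neighbours, all on one side of it (NREP, EPB41L4A, EPB41L4A-AS1 and APC), and 2 lower ones. These compare with 12.4% higher and 22.5% lower genes over the arrays. LSS on chromosome 21 had 2 higher neighbours and 1 lower, with a median of -0.18, and INSIG1 on chromosome 7 had 5 lower and none higher, with a median of -0.35. Around ACAT2, TM7SF2 and ACLY 3, 3 and 4 of 10 neighbours were lower and none higher. Around DHCR7 1 was higher and 1 lower, and around INSIG2 1 was higher and none lower. Copy number at these places was not examined here.

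**Figure D4:**
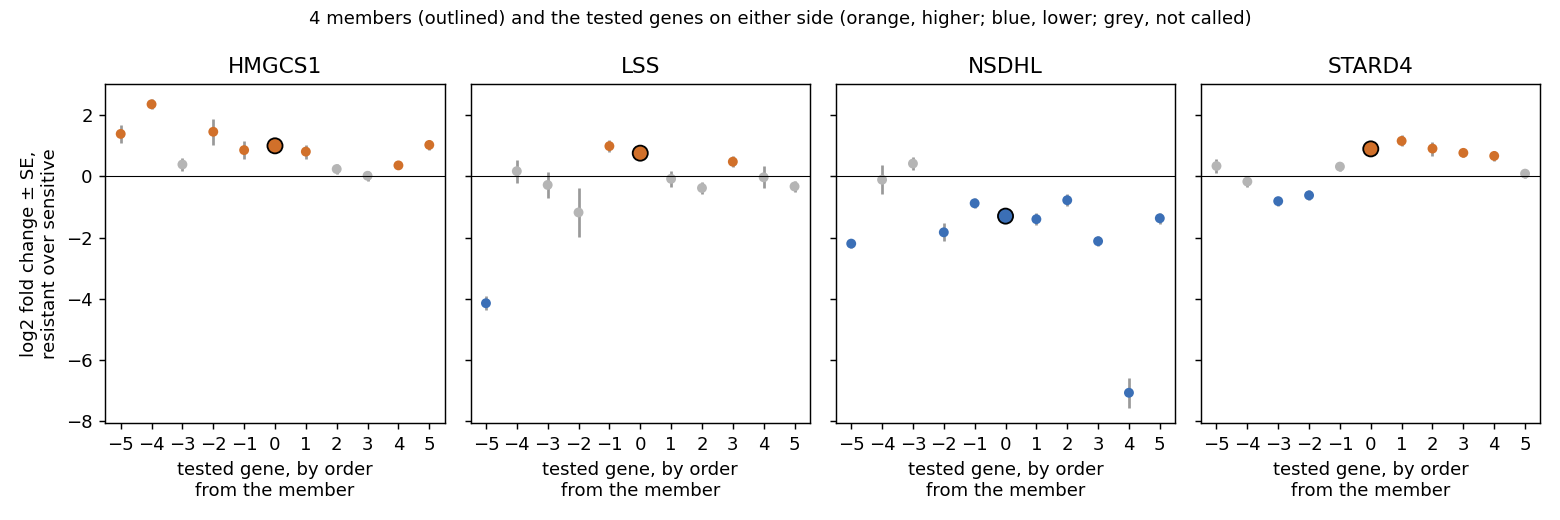
Log2 fold change with SE of HMGCS1, LSS, NSDHL and STARD4 (outlined) and of the 5 nearest tested genes on either side, in chromosomal order (orange, called higher; blue, called lower; grey, not called). Most genes around HMGCS1 are higher and most around NSDHL lower, while those around LSS are mixed.

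Other genes of lipid metabolism were read from 8 further lists, of which 95 of 131 genes were tested. Of these 22 were higher and 16 lower, against 12.4% and 22.5% of all tested genes, and the median log2 fold change was 0.10 against -0.10. Counts of single lists are to be read against the same shares. The other sterol enzymes included 5 tested genes, of which none was higher and LBR, a sterol C14 reductase of the nuclear envelope, was lower (log2 fold change -0.28, SE 0.11). The call for LBR was lost after quantile normalization and without any 1 array except resistant replicate 1. Other parts of the SREBP machinery had 3 of 8 genes higher and 1 lower. ERLIN2, which with ERLIN1 restrains SREBP activation, had a log2 fold change of 1.42 (SE 0.18), although its second probe set gave 0.07. MBTPS2, the protease of the last cleavage of SREBP, rose by 0.72 (SE 0.16), and RNF139, a ubiquitin ligase of the endoplasmic reticulum that binds INSIG1, fell by 1.20 (SE 0.16).

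The isoprenoid branch, which leaves the pathway before squalene, had 2 of 11 genes higher and 4 lower, with a median of -0.36. FNTA, a subunit of the enzymes that attach farnesyl or geranylgeranyl groups to proteins, rose by 0.95 (SE 0.16), but its second probe set gave 0.27 with no call. NUS1, for dolichol synthesis, and PDSS1, for the tail of ubiquinone, had log2 fold changes of -0.74 (SE 0.16) and -0.55 (SE 0.17), and PDSS1 lost its call without sensitive replicate 1 or resistant replicate 2. Sterol uptake and trafficking had no higher gene among 12, and 2 lower ones, namely the lipoprotein receptor VLDLR (-0.99, SE 0.30) and the cholesterol ester hydrolase NCEH1 (-0.48, SE 0.16). The LDL receptor was not analysed here for lack of a probe set naming it alone. Of 6 LXR targets and efflux genes, the lipoprotein component APOE (0.67, SE 0.21) and the transporter ABCA2 (0.49, SE 0.20) were higher, and MYLIP, a ubiquitin ligase of the LDL receptor, was lower (-0.66, SE 0.18). APOE was at 0.12 and not called when its probe sets were averaged, and MYLIP was not called at its second probe set. ABCA2 lost its call without sensitive replicate 2 or 3 or resistant replicate 1 or 2, and NCEH1 without any 1 sensitive array or resistant replicate 2.

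Genes of lipid storage and fatty acid oxidation changed as well. PLIN2, which coats lipid droplets, had scaled signals of 15, 11.7 and 14.2 in sensitive and 0.707, 0.269 and 0.0592 in resistant cells. Every resistant array was under the array median, and every sensitive array far above it. PLIN2 was called lower, but it passed the filter only through the sensitive arrays, and the size of its change rests on dim signals. The log2 fold change of -5.92 was -4.96 without resistant replicate 3, -6.75 without resistant replicate 1, -3.47 with a pseudocount of 1 and -2.80 when its probe sets were averaged. DGAT2, which makes triglycerides, fell by 1.70 (SE 0.18), while AGPAT5, an acyltransferase of phospholipid synthesis, rose by 1.23 (SE 0.15). In all 4 of 13 glycerolipid genes were higher and 2 lower. Of 23 genes of fatty acid oxidation 7 were higher and 3 lower, led by ECI2, an enoyl-CoA isomerase (2.92, SE 0.19), EHHADH, a peroxisomal hydratase and dehydrogenase (1.5, SE 0.30), and ECHS1, the mitochondrial enoyl-CoA hydratase (0.77, SE 0.11). Of 17 other genes of fatty acid synthesis 4 were higher and 2 lower. Among these SCD5, a second stearoyl-CoA desaturase, had 0.106, 0.753 and 0.526 against 2.98, 3.19 and 2.07. It passed the filter only through the resistant arrays, and its log2 fold change of 2.96 was 2.10 without sensitive replicate 1, 3.52 without sensitive replicate 2, 1.37 with a pseudocount of 1 and 0.29, with no call, at its second probe set. The acyl-CoA synthetases ACSL1 (0.88, SE 0.16) and ACSS1 (0.70, SE 0.22) were also higher, the latter not without sensitive replicate 3 or resistant replicate 1 or 2.

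**Figure D5:**
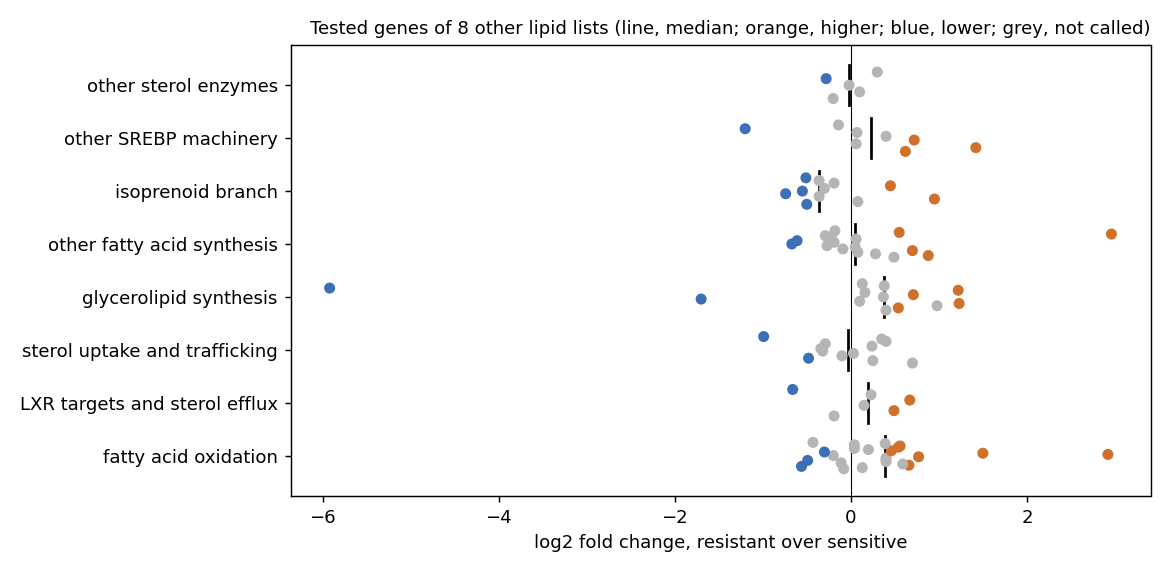
Log2 fold changes of the tested genes of 8 further lipid lists (points, genes; lines, list medians; orange, called higher; blue, called lower; grey, not called). PLIN2 is the point at -5.92, and SCD5 and ECI2 are those at 2.96 and 2.92, where the values of PLIN2 and SCD5 rest on 1 group under the array median and move with the settings.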

How the data were processed

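The values deposited by the authors are MAS5 signals of 3 sensitive and 3 resistant samples (intensity on a linear scale, 1 per probe set), and the sources used here give no MAS5 version. Of 54675 probe sets, 62 controls were left out. A platform annotation gave 41091 probe sets 1 gene, and those with several were not used to name a gene. Each signal was divided by its array median, values under 0.01 were set to 0.01, and the log2 values of genes averaging 1 or more over the 6 arrays were fitted with limma 3.58.1 (R 4.3.3, lmFit and eBayes with a trend) with Benjamini-Hochberg adjustment over 11835 genes. Figures were drawn with matplotlib 3.10.9. On simulated data with 50 genes changed at each size, 42% of 1.5-fold and 72% of 2-fold changes were recovered, and 14 unchanged genes were called. Far fewer genes were changed there than the 1472 higher and 2659 lower genes called in the data. The adjustment was therefore stricter than in the fit here, and these shares do not describe that fit.

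The members, the lists, the tests and the alternatives were chosen with earlier results of these data known. All members are accounted for. Values by array are given for members called with at least a 1.5-fold change, for the regulators and for members whose probe sets differed in sign, and up to 3 called genes with the largest change are named from each other list. Array values of ACAT2, DHCR7, ACLY, PMVK, MVD, FASN, PLIN2 and SCD5, the values of further probe sets, the neighbours and the removal of NSDHL were added after seeing the data. Alternatives covered the scaling, floor, filter, test, probe set, a replicate block and each array left out. The methods name a t-test with multiple testing correction without giving its variances, so it was run here with equal variances, with unequal variances as a further alternative, and on the genes past the filter above, not the study's own. No scanner files or batches were used.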

Additional observations from a re-analysis of the deposited data

How the results depend on the processing

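HMGCS1, LSS, STARD4 and NSDHL were called in the same direction when each array was left out in turn. Without single arrays, 2 to 5 sterol enzymes were called higher and 1 to 2 lower, 1 to 2 regulators higher and 0 to 2 lower, 0 to 1 fatty acid genes higher and 0 to 2 lower, and 9 to 21 genes of the other lists lower. The calls for ACAT2, DHCR7, INSIG2 and TM7SF2 were lost without resistant replicate 1 and without at least 1 sensitive array, and those for INSIG1 and ACLY without resistant replicate 2 or 3 and without at least 1 sensitive array.

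Against 5 sterol enzymes called higher, 10 were after quantile normalization, 9 after scaling to the median of probe sets past the filter, 3 with no filter, the mean of all probe sets, the second brightest probe set or an adjusted p under 0.01, 2 with limma without a trend, 1 by the methods' t-test with equal variances, and 0 with unequal variances or with a 3-fold threshold. Against 1 called lower, 2 were with no further scaling, the median past the filter or a minimum mean signal of 3, and 0 with unequal variances or a 3-fold threshold. Of the regulators, 1 was higher with no filter, the mean of all probe sets, limma without a trend or an adjusted p under 0.01, and 0 by either t-test or at 3-fold. None (0) was lower under any of these or after quantile normalization. Of the fatty acid genes, 2 were higher with no further scaling, after quantile normalization or with the median past the filter, and 1 with a minimum of 3. None (0) was lower after quantile normalization, with no filter, limma without a trend, unequal variances, a 3-fold threshold or an adjusted p under 0.01. With unequal variances no member was called, and 3 were higher and 2 lower at an unadjusted p under 0.05. Of the other lists, 36 genes were higher after quantile normalization, 10 were higher and 8 lower by the t-test with equal variances, 1 and 1 with unequal variances, 2 and 2 at 3-fold, and 9 were lower at an adjusted p under 0.01. The median of the sterol enzymes was 0.42 and that of the fatty acid genes 0.19 after quantile normalization, and the latter was -0.22 with the mean of all probe sets. The branch difference was -0.0028 with the second brightest probe set, where the filter removed FASN. It was 0.21 with the mean of all probe sets and 0.31 without NSDHL. PDSS1 (0.17) and ACSS1 (-0.0045) changed sign with the mean of all probe sets, and COQ2 (0.27) with the second brightest. Beyond what these settings change by their construction, the cause was not tested.

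The replicate number as a replicate block gave 9 members higher and 5 lower (2 sterol enzymes lower, and 1 fatty acid gene higher and 2 lower). Deviations of arrays with the same number correlated at 0.0752, 0.0229 and 0.0480, and every array correlated best with its own number, as a hint from the data and not the design. With 3 arrays a group, changes of 1.5-fold can be missed, and dim probe sets carry little signal over background.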
